A study of Rattus norvegicus with 19 samples.

Results

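The genes described here code for receptors of neuromodulators: serotonin, noradrenaline and adrenaline, acetylcholine (the muscarinic type), dopamine, histamine, endocannabinoids, and the opioid, somatostatin, neuropeptide Y and tachykinin peptides. They were taken by symbol from the gene column of the deposited enhancer-gene table, which gave 51 of its 17715 genes: 13 serotonin, 9 adrenergic, 5 muscarinic, 4 histamine, 4 opioid, 4 somatostatin, 4 neuropeptide Y, 3 dopamine, 3 tachykinin and 2 cannabinoid receptor genes. The table also holds 27538 transcriptionally active putative enhancers (TAPEs), somewhat fewer than the study called, which are intergenic regions given this name because their chromatin is accessible and RNA comes from both of their strands. Of these, 292 have a centre under 200 kb from the start of a receptor gene. They form 314 of the 73636 TAPE-gene pairs under that distance. A receptor gene had a median of 5.0 such TAPEs, from 1 to 21 (Hrh2), and only Drd3 had none, with its nearest TAPE 451389 bp away. Npy1r and Npy5r, whose starts lie 8384 bp apart, shared all 15 of their TAPEs, and Htr3a and Htr3b shared 2.

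Neurons were dissociated from cortex, hippocampus or striatum of Sprague-Dawley rat embryos at day 18 of gestation, grown for 11 days in vitro, and exposed for 1 h to KCl, which depolarizes the membrane, or to culture medium as vehicle. Total RNA depleted of ribosomal RNA was sequenced. By their titles the 6 groups held 3 libraries each, apart from 4 for striatum vehicle. The study's supplementary methods instead list 3 vehicle and 4 KCl files for striatum, and the titles are followed here. The study's text and the series text give a KCl dose of 10 mM for these libraries, while their sample labels give 25 mM, and the values cannot settle this. All groups are wild-type mixed cultures of dissociated embryonic cells, so in these bulk libraries fewer cells of a type and less RNA per cell cannot be told apart. The study calls the libraries biological replicates without saying which came from separate litters, so p-values measure the spread between these libraries, which may be partly technical.

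Most of these receptors span the membrane 7 times and signal through G proteins. Receptors coupled to Gs (Drd5, the beta adrenergic receptors, Htr4, Htr6, Hrh2) raise cyclic AMP, those coupled to Gi/o (the opioid, somatostatin, neuropeptide Y, cannabinoid and alpha-2 adrenergic receptors, Chrm2, Chrm4, Hrh3 and the Htr1 group) lower it and often damp transmitter release, and those coupled to Gq (Htr2 group, Chrm1, Chrm3, Chrm5, alpha-1 adrenergic receptors, Hrh1 and tachykinin receptors) act through phospholipase C. The Htr3 genes are the exception and code for subunits of an ion channel. Because the neurons of each forebrain region carry their own set of these receptors, the same transmitter acts differently from region to region.

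The table gives a value per library for each TAPE, as reads scaled to TAPE length in kb and to library total (CPKM, the unit better known as RPKM), and for genes only the correlation of each gene with its TAPEs. The gene values were recovered from those correlations as whole reads and are given as RPM, reads scaled to the library total in the same way without the length. This worked for 49 of the 51 genes. Drd3 and Htr2c had too few TAPEs. A gene's reads are known up to a common whole factor, which does not touch ratios between libraries or the exact permutation test. It could place a level too low, and levels are not compared between genes. A level too low would shrink the differences fitted by limma on log2(RPM + 0.2) and could put a gene under the filter of 0.2 RPM. Library totals ran from 46.4 to 72.5 M reads. In profile over all genes every library correlated best with the region of its title, including cortex vehicle replicate 3, whose tissue label reads striatal (mean r of 0.992 with the cortex libraries and 0.948 with the striatum libraries). Markers of the regions were present where the labels put them. Glutamatergic pallial neuron markers summed to between 646 and 810 RPM in cortex and hippocampus and between 2.70 and 3.54 in striatum, and 9 striatal projection neuron markers to between 3341 and 3784 RPM in striatum and between 375 and 455 elsewhere. The cultures also differed in glial markers, since the 6 astrocyte markers summed to between 1073 and 1241 RPM in cortex, 1870 and 1974 in hippocampus and 258 and 288 in striatum, and oligodendrocyte lineage markers to between 453 and 489, 345 and 414, and 166 and 203. Between cortex and hippocampus single markers were split. In cortex 2 astrocyte markers were higher and 4 lower, and 4 of 7 oligodendrocyte lineage markers were higher and 2 lower. Interneuron markers summed to between 267 and 327 RPM in striatum and 83.3 and 157 elsewhere, while microglia markers reached at most 0.123 RPM. The part of these cell types in the receptor differences below was not tested. All 8 immediate early genes used to check the treatment rose with KCl in each region by limma. In striatum they summed to between 286 and 440 RPM in libraries titled vehicle and between 3041 and 3201 in those titled KCl.

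Many receptor genes stood at different levels in the cultures of the 3 regions. Over 6 cortex libraries and 6 hippocampus libraries, 32 of the 49 genes differed at an adjusted p under 0.05 (exact permutation test, two-sided, Benjamini-Hochberg over 16797 genes), against 41.5% of all genes, and 12 of them were higher in cortex (20.4% of all genes were) and 20 in hippocampus (21.2%). Between cortex and the 7 striatum libraries 36 differed, against 52.9% of all genes, with 23 higher in cortex (26.6%) and 13 in striatum (26.3%). Between hippocampus and striatum 34 differed, against 60.1% of all genes, with 19 higher in hippocampus (30.0%) and 15 in striatum (30.1%). Among the 38 genes with a mean of at least 0.2 RPM the median log2 difference was -0.35 for cortex minus hippocampus, 0.41 for cortex minus striatum and 0.40 for hippocampus minus striatum, where the medians over the 12834 genes past the same filter were 0.01, -0.01 and -0.01. The other 11 genes with reads lay under that filter.

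Hippocampus led most often. Called higher there than in both other regions were 14 of the 49 genes (28.6%, against 15.1% of all genes): Adra2a, Adra2c, Chrm3, Cnr1, Hrh3, Htr1a, Htr3a, Htr4, Npy2r, Oprl1, Sstr3, Sstr4, Tacr2 and Tacr3. Striatum led for 11 (22.4%, against 20.5%): Adra1a, Adra1d, Adra2b, Chrm5, Hrh2, Htr1b, Htr1d, Htr2a, Oprd1, Oprm1 and Tacr1. Cortex led for 9 (18.4%, against 8.76%): Adra1b, Chrm1, Chrm4, Hrh1, Htr1f, Htr5a, Npy1r, Sstr1 and Sstr2. For members whose ranges did not overlap between regions, the exact permutation test gave an adjusted p of 0.00767 between cortex and hippocampus, 0.00181 to 0.00322 between cortex and striatum, and 0.00151 to 0.00382 between hippocampus and striatum. The log2 differences below were fitted by limma on log2(RPM + 0.2), which understates the change of low genes, and are given with their SE.

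**Figure D1:**
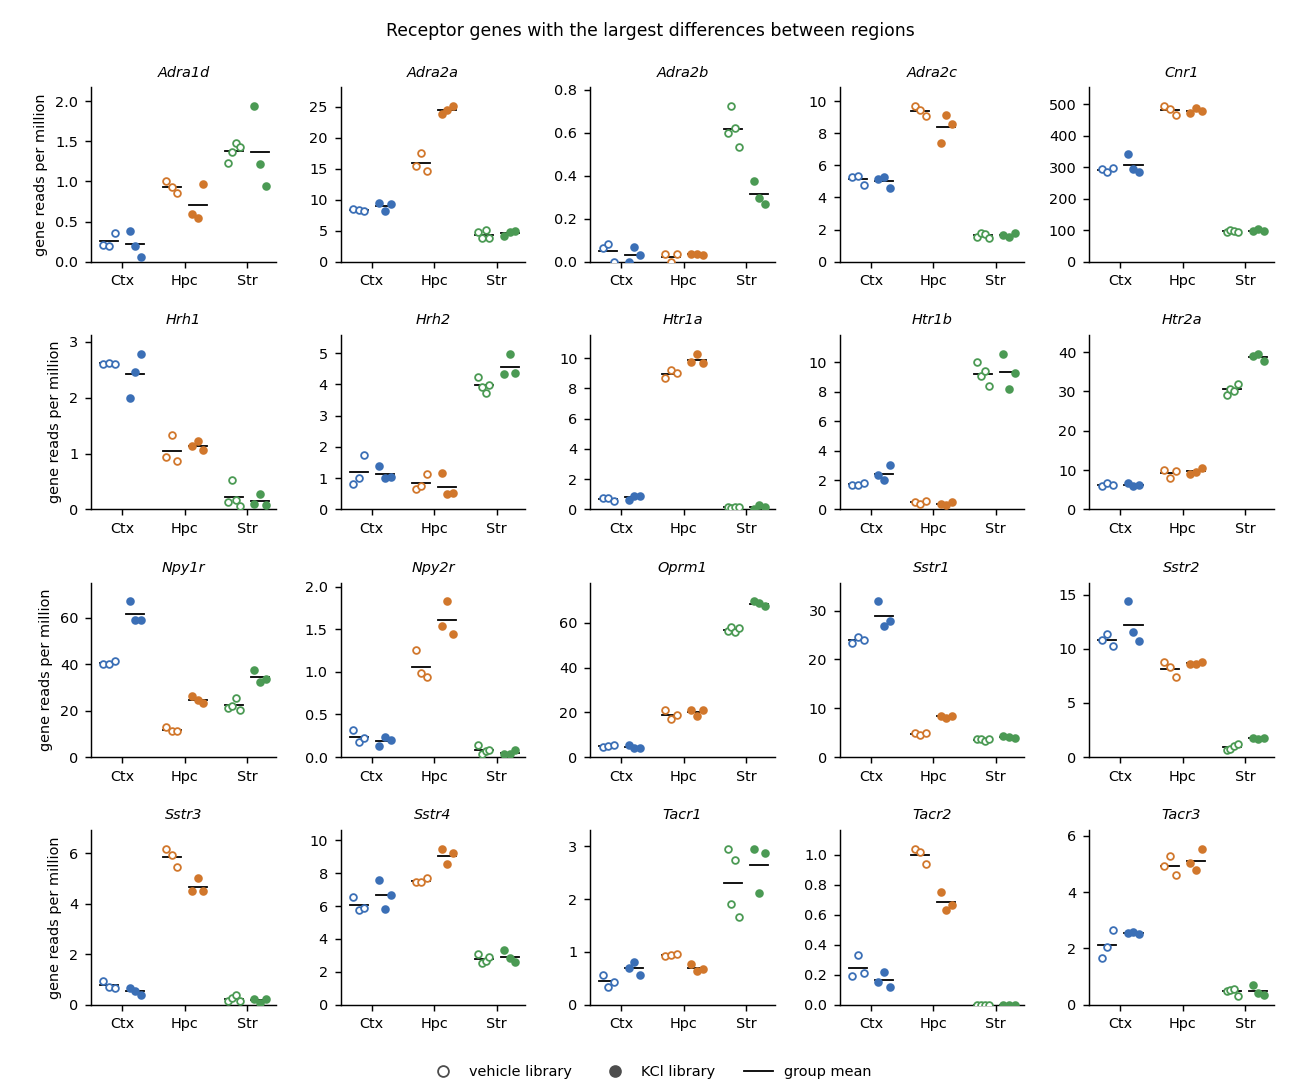
Gene RPM in each of the 19 libraries for the 20 receptor genes with the largest differences between regions, in cortex (Ctx), hippocampus (Hpc) and striatum (Str), where open points are vehicle libraries, filled points KCl libraries and short lines group means. Htr1a stood between 8.68 and 10.3 in hippocampus and at most at 0.892 elsewhere, while Oprm1 stood between 55.8 and 69.6 in striatum and at most at 21.2 elsewhere.

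Serotonin receptor genes went in opposite directions by subtype. Htr1a, the Gi-coupled receptor found on hippocampal pyramidal neurons and on serotonin neurons themselves, had a lowest, median and highest value of 8.68, 9.45 and 10.3 RPM in hippocampus. It had 0.535, 0.742 and 0.892 RPM in cortex and 0.0378, 0.141 and 0.258 in striatum. The 3 ranges were apart, and hippocampus exceeded striatum 28.3-fold (log2 difference 4.82 ± 0.13) and cortex 10.4-fold. Htr1b, a Gi-coupled receptor that sits on axon terminals of striatal output neurons, had the reverse order. Its values were 8.20, 9.31 and 10.6 RPM in striatum, 1.65, 1.87 and 3.0 in cortex and 0.317, 0.437 and 0.580 in hippocampus, again without overlap. Striatum exceeded hippocampus 14.9-fold (hippocampus minus striatum -3.90 ± 0.13) and cortex 4.27-fold. The related Htr1d also stood highest in striatum (131 reads in 7 libraries, against 31 in cortex and 10 in hippocampus), and its range did not overlap that of hippocampus.

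Htr2a, the Gq-coupled receptor through which classical hallucinogens act, had 29.1, 32.0 and 39.6 RPM in striatum. It had 7.92, 9.64 and 10.5 RPM in hippocampus and 5.87, 6.20 and 6.60 in cortex. Striatum stood 5.29-fold over cortex (-2.40 ± 0.08, cortex minus striatum) and 3.54-fold over hippocampus. Htr4, a Gs-coupled receptor, had 11.4, 13.6 and 15.9 RPM in hippocampus, above the 4.09, 4.99 and 6.06 of cortex and the 4.24, 6.50 and 7.60 of striatum. Cortex and striatum overlapped for Htr4 and did not differ by the exact permutation test (adjusted p = 0.229). Of the other serotonin receptor genes, Htr1f and Htr5a were called highest in cortex (medians of 0.612 and 2.18 RPM), Htr3a in hippocampus (3.45 RPM), and Htr5b was lowest in cortex (0.212 RPM). By limma's F-test over the regions 37 of the 38 filtered genes passed, against 84.2% of all genes, and the one that did not was Htr6 (adjusted p = 0.738), with medians of 1.37, 1.49 and 1.59 RPM in cortex, hippocampus and striatum. The calls of Htr3a between cortex and hippocampus and of Htr5a between hippocampus and striatum were lost in 10 of 12 and in 11 of 13 fits that left out a library. Htr2b had 68 reads, 3 of them in hippocampus, with a call against striatum that was lost in 5 of 13 such fits. Htr3b had 54 reads in all, and its annotated span lies near that of Htr3a on chromosome 8 without overlapping it.

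Opioid receptor genes separated the regions by subtype too. Oprm1, the mu receptor that binds morphine and the enkephalins, had 55.8, 58.1 and 69.6 RPM in striatum, 17, 19.8 and 21.2 in hippocampus and 4.12, 4.67 and 5.26 in cortex. No value of a region reached the next region's range, and striatum stood 12.7-fold over cortex (cortex minus striatum -3.67 ± 0.07) and 3.15-fold over hippocampus. Oprd1, the delta receptor, was likewise highest in striatum, with 2.19, 2.67 and 3.43 RPM. Cortex and hippocampus, with medians of 0.858 and 0.950, overlapped for it (exact permutation test, adjusted p = 0.633). Oprl1, the nociceptin receptor, differed least in size: hippocampus had 18.1, 19.0 and 19.9 RPM, cortex 15.7, 16.7 and 17.7, and striatum 11.7, 12.3 and 15. Its 3 ranges were apart although the largest fold was 1.46, between hippocampus and striatum. Oprk1, the kappa receptor for dynorphins, was lowest in cortex (0.0673, 0.129 and 0.193 RPM), while hippocampus and striatum overlapped around medians of 0.504 and 0.363. The cortex-striatum call of Oprk1 was lost in 11 of 13 fits that left out a library.

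All 4 somatostatin receptor genes, which code for Gi-coupled receptors of a peptide released by a class of interneurons, were called lower in striatum than in cortex (26.6% of all genes were) and lower than in hippocampus (30.0%). Sstr2 had 0.651, 1.17 and 1.80 RPM in striatum against 10.3, 11.1 and 14.4 in cortex, an 8.48-fold difference (3.08 ± 0.17), and 7.39, 8.62 and 8.81 in hippocampus. Sstr1 had 23.3, 25.7 and 31.9 RPM in cortex, 4.44, 6.51 and 8.50 in hippocampus and 3.33, 3.73 and 4.38 in striatum, so cortex stood 6.63-fold over striatum and 4.07-fold over hippocampus. These members led in cortex and the remaining pair led in hippocampus. Sstr3, whose protein is known for its place on neuronal primary cilia, had 4.51, 5.23 and 6.17 RPM in hippocampus, 0.366, 0.657 and 0.930 in cortex and 0.0738, 0.227 and 0.380 in striatum. Hippocampus exceeded striatum 13.6-fold (3.76 ± 0.16), whereas cortex and striatum overlapped slightly. Sstr4 had 7.44, 8.14 and 9.48 RPM in hippocampus, close to the 5.78, 6.24 and 7.56 of cortex, and 2.56, 2.82 and 3.32 in striatum.

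Among neuropeptide Y receptor genes, Npy1r, which codes for the Gi-coupled Y1 receptor, was highest in cortex with 40.0, 50.3 and 67.0 RPM. Hippocampus had 11.0, 18.2 and 26.1 and striatum 20.4, 25.6 and 37.5, which overlapped (exact permutation test, adjusted p = 0.0661, and 0.00947 by limma). Npy2r, the mainly presynaptic Y2 receptor, was highest in hippocampus, with 0.942, 1.35 and 1.83 RPM from 459 reads, against 0.129, 0.214 and 0.321 in cortex and 0.0369, 0.0690 and 0.141 in striatum. Hippocampus stood 5.61-fold over striatum (2.49 ± 0.15) and 3.65-fold over cortex. Npy5r and Npy4r had 186 and 20 reads in all and no call. Npy1r and Npy5r are neighbours on opposite strands of chromosome 16, with annotated spans that do not overlap.

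Of the alpha-1 adrenergic receptor genes, Adra1a and Adra1d led in striatum and Adra1b in cortex, and of the alpha-2 genes, Adra2a and Adra2c led in hippocampus and Adra2b in striatum. Adra1a had 5.40, 6.20 and 7.95 RPM in striatum, 2.39, 3.13 and 3.77 in hippocampus and 1.77, 2.32 and 2.75 in cortex. Adra1d had 0.939, 1.37 and 1.94 in striatum, against 0.0585, 0.205 and 0.388 in cortex, a 3.69-fold difference, and its hippocampal values (0.547, 0.891 and 1.01) overlapped those of striatum. Adra1b had a median of 2.02 RPM in cortex over 1.41 in hippocampus and 1.38 in striatum. Adra2a, the Gi-coupled autoreceptor of noradrenaline neurons and a target of clonidine, had 14.6, 20.7 and 25.1 RPM in hippocampus, 8.20, 8.42 and 9.55 in cortex and 3.80, 4.72 and 5.12 in striatum. Adra2c followed the same order without overlap, with medians of 9.11, 5.22 and 1.68 RPM, and hippocampus stood 4.91-fold over striatum (2.30 ± 0.07). Adra2b had 0.268 to 0.725 RPM in striatum from 187 reads, against 16 reads in cortex and 10 in hippocampus. Adrb1, the beta-1 receptor, was lower in hippocampus (4.17, 4.42 and 5.52 RPM) than in striatum (6.90, 7.31 and 9.97), and its wide cortical range is taken up below with KCl. Adrb3 had 32 reads.

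Muscarinic receptor genes showed smaller region differences. Chrm3 had 32.3, 34.5 and 36.2 RPM in hippocampus, 22.9, 23.4 and 24.4 in cortex and 12, 13.5 and 14.5 in striatum, up to a 2.58-fold difference. Chrm4, a Gi-coupled receptor known for its role in striatal neurons of the direct pathway in the adult, was lowest in striatum, with 5.54, 5.99 and 6.80 RPM against 9.60, 10.9 and 12.4 in cortex and 7.93, 8.72 and 10.4 in hippocampus. The striatal range lay apart from both others, 1.80-fold under cortex (0.85 ± 0.07). Chrm1 was highest in cortex (11.8, 13 and 14.8 RPM), where the other regions overlapped around 10.2 and 10.7. Chrm2 was lowest in hippocampus (median 0.712 RPM, against 1.49 in cortex and 1.69 in striatum), and Chrm5 was highest in striatum (2.63 RPM, against 0.839 and 1.20 in cortex and hippocampus).

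The cannabinoid, histamine and tachykinin genes each held members with wide differences. Cnr1, the CB1 receptor on axon terminals, had 467, 482 and 494 RPM in hippocampus, 284, 294 and 342 in cortex and 95, 97.2 and 103 in striatum. The 3 ranges were apart, and hippocampus stood 4.88-fold over striatum (2.29 ± 0.03). Cnr2, which is known from immune cells, had 27 reads in all, 20 of them in cortex, and its call over striatum was lost in 11 of 13 fits without a library. Hrh1 and Hrh2 had striatum at opposite ends. Hrh1, a Gq-coupled receptor, had 2.0, 2.61 and 2.79 RPM in cortex, 0.870, 1.10 and 1.33 in hippocampus and 0.0691, 0.141 and 0.524 in striatum, and the Gs-coupled Hrh2 had 3.73, 4.24 and 4.98 in striatum, 0.818, 1.03 and 1.75 in cortex and 0.494, 0.697 and 1.15 in hippocampus. Cortex exceeded striatum 7.31-fold for Hrh1 (2.87 ± 0.18), and striatum exceeded hippocampus 4.66-fold for Hrh2 (-2.22 ± 0.16, hippocampus minus striatum). Hrh3, the histamine autoreceptor, led in hippocampus with a median of 10.3 RPM over 7.60 in cortex and 6.11 in striatum, and Hrh4 had 5 reads.

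Tacr1, the substance P receptor, had 1.66, 2.74 and 2.95 RPM in striatum, against 0.331, 0.566 and 0.807 in cortex and 0.635, 0.845 and 0.960 in hippocampus. Tacr3, the neurokinin B receptor, was highest in hippocampus with 4.60, 4.98 and 5.53 RPM, then cortex with 1.67, 2.53 and 2.64, then striatum with 0.311, 0.493 and 0.680, and hippocampus stood 7.88-fold over striatum (2.98 ± 0.13). Tacr2 had the same order of regions as Tacr3. It had no read in any of the 7 striatum libraries, 78 reads in cortex and 289 in hippocampus. A count of 0 allows up to 3 reads over the striatum libraries if each read is independent. On that assumption striatum was at least 26.4-fold lower than cortex and at least 107-fold lower than hippocampus, which covers counting error only. The study sequenced paired ends, and whether both mates of a fragment were counted was not tested. If they were, these limits are too high. Of the dopamine receptor genes in the set, Drd5 was lowest in hippocampus with 14 reads against 60 in cortex and 45 in striatum, and Drd4 had 7 reads in all.

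The share of receptor genes that changed with KCl was close to that of all genes. Over the 3 regions together, 11 of the 49 genes passed the exact permutation test stratified by region (adjusted p under 0.05, two-sided), against 20.6% of all genes. Higher with KCl were 7, Adra2a, Adrb1, Chrm4, Htr2a, Npy1r, Sstr1 and Sstr2, against 5.95% of all genes, and lower were 4, Adrb3, Htr4, Htr6 and Sstr3, against 14.6%. Of these calls, those of Htr2a and Sstr2 were each lost in 13 of 19 fits with 1 library removed, that of Adrb3 in 11 and that of Adra2a in 8, that of Chrm4 in 1, and the other 6 in none. Within regions, limma on the 38 filtered genes called 2 genes in cortex cultures (4.86% of all genes), 4 in those of hippocampus (11.0%) and 8 in those of striatum (25.5%), and the KCl effect depended on region for 5 (3.82%). The median KCl change of the 38 genes was -0.02, 0.03 and 0.00 in cortex, hippocampus and striatum, where all genes had -0.04, -0.04 and -0.05. KCl and vehicle values did not overlap for 7 of the 49 genes in cortex (18.1% of all genes), for 16 in hippocampus (23.9%) and for 13 in striatum (25.8%).

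Npy1r was the only receptor gene called within every region. In cortex its vehicle libraries had 40.0, 40.1 and 41.5 RPM and its KCl libraries 67.0, 59.1 and 59.1. In hippocampus the values were 13.1, 11.0 and 11.1 with vehicle and 26.1, 24.7 and 23.3 with KCl. In striatum they were 21.2, 21.8, 25.6 and 20.4 with vehicle and 37.5, 32.4 and 33.5 with KCl. Every KCl library stood above every vehicle library of its region. The gene rose by 0.60 ± 0.06 on the log2 scale in cortex (limma, adjusted p = 7.48e-05), by 1.06 ± 0.08 in hippocampus (4.90e-07) and by 0.63 ± 0.07 in striatum (2.92e-05), and these changes differed between regions (limma interaction, adjusted p = 0.0178). The interaction was lost when any of 4 hippocampus libraries was left out, vehicle replicates 2 and 3 and KCl replicates 1 and 2, with an adjusted p of 0.0737, 0.0814, 0.0747 and 0.0503 by limma.

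Adrb1 rose most in cortex. Its vehicle values there were 4.04, 4.54 and 4.06 RPM and its KCl values 10.5, 9.37 and 9.66, a rise of 1.19 ± 0.10 (limma, adjusted p = 1.35e-05), or 2.27-fold. In hippocampus vehicle libraries had 5.52, 4.25 and 4.17 and KCl libraries 5.25, 4.41 and 4.43, which overlapped (0.02 ± 0.13). In striatum vehicle libraries had 6.93, 7.31, 6.90 and 7.07 and KCl libraries 8.57, 8.04 and 9.97, a rise of 0.32 ± 0.09 (limma, adjusted p = 0.0183) that missed the threshold without KCl replicate 7 (0.23, adjusted p = 0.105). Its interaction of KCl and region had the lowest adjusted p among the 38 genes (limma interaction, 3.29e-05) and, like that of Sstr1, passed whichever of the 19 libraries was left out. In vehicle libraries Adrb1 had its highest values in striatum, and in KCl libraries cortex and striatum overlapped.

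Sstr1 and Adra2a rose in hippocampus. Sstr1 had 4.95, 4.44 and 4.82 RPM with vehicle and 8.45, 8.06 and 8.50 with KCl there, a rise of 0.79 ± 0.10 (limma, adjusted p = 1.12e-04). In cortex it had 23.3, 24.6 and 23.9 with vehicle and 31.9, 26.8 and 27.9 with KCl (0.26 ± 0.08, adjusted p = 0.0899, or 0.0375 with libraries centred on their median). In striatum it had 3.59, 3.59, 3.33 and 3.73 with vehicle and 4.38, 4.06 and 3.93 with KCl (0.20 ± 0.10, adjusted p = 0.185). KCl values lay above vehicle values in all 3 regions, and the interaction passed by limma (adjusted p = 0.00334). Adra2a had 15.5, 17.6 and 14.6 RPM with vehicle and 23.8, 24.5 and 25.1 with KCl in hippocampus, a rise of 0.62 ± 0.08 (limma, adjusted p = 8.31e-05). Its cortical and striatal values overlapped between treatments, at 0.11 ± 0.10 and 0.08 ± 0.12. Its interaction (adjusted p = 0.0411 by limma) was lost in 11 of 19 fits without a library.

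In striatum Sstr2, Htr2a and Oprm1 rose. Sstr2 had 0.651, 0.725, 1.02 and 1.17 RPM with vehicle and 1.74, 1.64 and 1.80 with KCl, from 475 reads in the 7 libraries, a rise of 0.85 ± 0.18 (limma, adjusted p = 0.00372), and its interaction (0.0310) was lost in 13 of 19 fits without a library. Htr2a had 29.1, 30.7, 30.2 and 32.0 RPM with vehicle and 39.1, 39.6 and 37.7 with KCl (0.35 ± 0.04, limma, adjusted p = 7.51e-05). Oprm1 had 56.3, 58.1, 55.8 and 57.7 RPM with vehicle and 69.6, 68.7 and 67.4 with KCl (0.27 ± 0.03, limma, adjusted p = 5.02e-05), although over the 3 regions it missed the exact permutation threshold (adjusted p = 0.0531). These steps were small next to the spread between regions but lay outside the range of the vehicle libraries. Chrm4 rose over the 3 regions together by 0.14 ± 0.05 (exact permutation test, adjusted p = 0.0230, or 0.0549 without hippocampus vehicle replicate 3) and passed in no single region.

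Genes lower with KCl were fewer. Htr4 fell in hippocampus from 15.5, 15.9 and 15.8 RPM to 11.7, 11.4 and 11.5 (-0.44 ± 0.07, limma, adjusted p = 0.00119) and in striatum from 7.60, 6.63, 7.02 and 6.50 to 4.49, 4.24 and 5.69 (-0.52 ± 0.11, 0.00357). Its cortical values, 6.06, 4.50 and 5.48 with vehicle and 5.93, 4.41 and 4.09 with KCl, overlapped. Htr6 fell in striatum from 2.11, 1.59, 1.90 and 2.31 RPM to 1.02, 1.14 and 1.09 (-0.75 ± 0.15, limma, adjusted p = 0.00240). Both code for Gs-coupled serotonin receptors. Adra2b fell in striatum from 0.598, 0.725, 0.621 and 0.536 RPM to 0.378, 0.295 and 0.268 (-0.68 ± 0.18, limma, adjusted p = 0.0132, and 0.0514 without KCl replicate 7). Sstr3 was lower over the regions by the exact permutation test (adjusted p = 0.0220) but not by limma (-0.31 ± 0.12, 0.0548), and in hippocampus its values went from 6.17, 5.92 and 5.45 to 4.51, 5.01 and 4.51. Adrb3 passed the permutation test on 32 reads in all. Leaving out striatum vehicle replicate 4 left 7 of the 11 calls, without Adra2a, Adrb3, Htr2a and Sstr2.

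**Figure D2:**
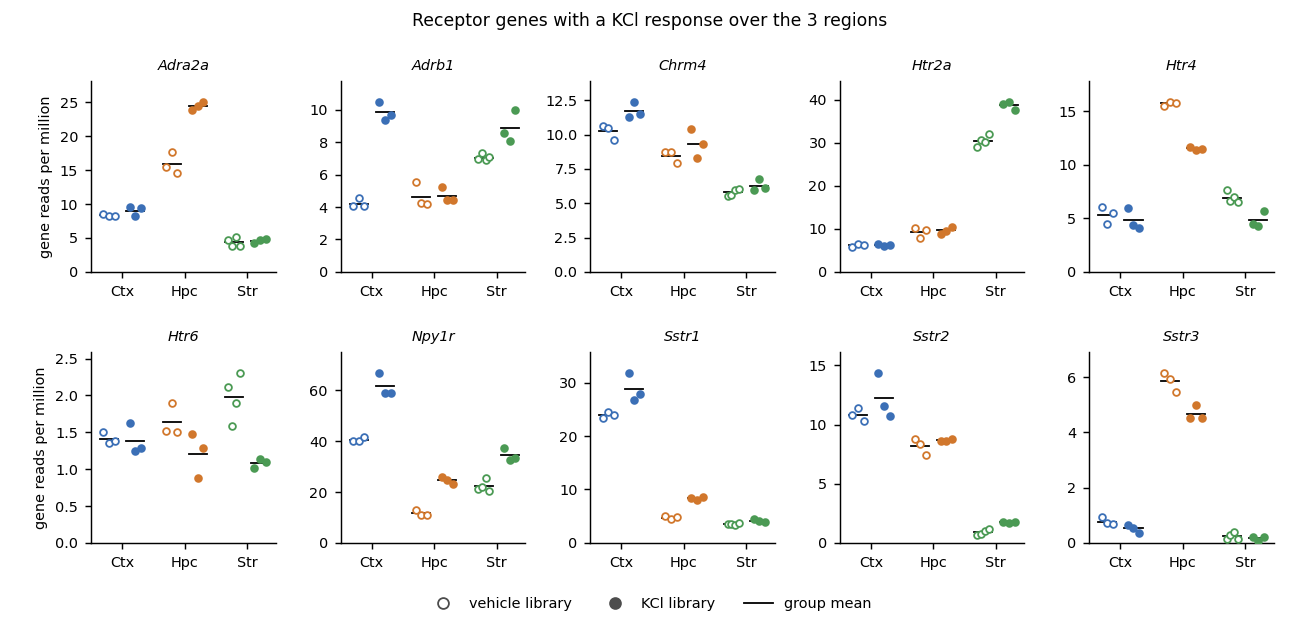
Gene RPM in each library, by region and treatment, for the 10 receptor genes called for KCl over the regions and past the filter on low genes, where open points are vehicle libraries, filled points KCl libraries and short lines group means. Npy1r KCl libraries stood above vehicle libraries in all 3 regions, while Adrb1 went from between 4.04 and 4.54 to between 9.37 and 10.5 in cortex and overlapped in hippocampus.

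A known route from depolarization to transcription runs through the factor CREB, which binds the cAMP response element. The 250 bases before the gene start were available from RefSeq (assembly GRCr8) for 39 of the 51 genes. They were searched on both strands for the full element TGACGTCA, its core TGACG, which the full element contains, and the AP-1 site TGANTCA. The core lay in 11 of the 39 (28.2%), against 18.2% of 33469 promoters of the same length, and the full element in 1 (2.56%, against 1.59%). Of the 7 genes higher with KCl, 6 had a promoter entry, and 4 of them, Npy1r, Adrb1, Sstr1 and Sstr2, held the core, as did 7 of the 33 other matched genes. These 4 are shown because they rose with KCl and held the core. The other raised genes with an entry held no core and are not shown. Sequences run 5′ to 3′ on the strand of the gene, with the core or full element in capitals.
Npy1r: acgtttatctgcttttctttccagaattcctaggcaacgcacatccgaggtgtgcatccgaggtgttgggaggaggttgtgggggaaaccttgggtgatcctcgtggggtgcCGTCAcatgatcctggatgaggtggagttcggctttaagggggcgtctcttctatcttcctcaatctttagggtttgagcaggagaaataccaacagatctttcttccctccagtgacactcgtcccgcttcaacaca
Adrb1: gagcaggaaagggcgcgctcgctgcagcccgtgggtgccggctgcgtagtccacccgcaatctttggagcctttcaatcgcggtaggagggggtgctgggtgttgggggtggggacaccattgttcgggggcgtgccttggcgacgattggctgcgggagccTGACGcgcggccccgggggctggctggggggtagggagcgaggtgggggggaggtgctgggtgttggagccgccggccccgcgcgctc
Sstr1: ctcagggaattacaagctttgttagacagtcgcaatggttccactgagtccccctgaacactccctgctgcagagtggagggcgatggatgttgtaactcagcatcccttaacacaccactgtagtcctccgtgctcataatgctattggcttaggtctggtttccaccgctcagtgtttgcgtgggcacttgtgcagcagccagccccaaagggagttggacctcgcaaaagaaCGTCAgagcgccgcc
Sstr2: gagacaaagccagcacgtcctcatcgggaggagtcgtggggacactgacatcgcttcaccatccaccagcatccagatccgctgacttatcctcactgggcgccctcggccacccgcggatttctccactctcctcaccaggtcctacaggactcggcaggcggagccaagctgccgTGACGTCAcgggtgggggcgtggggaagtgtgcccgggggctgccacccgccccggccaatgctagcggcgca
The windows are chr16:27813388-27813637 (minus strand) for Npy1r, chr1:265776853-265777102 for Adrb1, chr6:81567233-81567482 for Sstr1 and chr10:99163103-99163352 for Sstr2. Counting the base before the gene start as -1, the core lay at -138 to -134 of Npy1r on the opposite strand, at -88 to -84 of Adrb1 on the strand of the gene, at -15 to -11 of Sstr1 on the opposite strand, and at -73 to -66 of Sstr2, where both strands make up the full element. Of the genes lower with KCl, Htr6 and Sstr3 had an entry and held no match. AP-1 letters occurred in 1 promoter (2.56%, against 6.34% of all), that of Npy2r at -148 to -142. A match describes letters and not binding.

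Genes for the ligands and for signalling below the receptors gave the following counts. Of 7 neuropeptide precursor genes tested, 2, 3 and 3 rose in cortex, hippocampus and striatum and none fell by limma, where 4.24%, 4.11% and 7.11% of all genes rose and 0.623%, 6.92% and 18.4% fell, with median changes of 0.33, 0.33 and 0.18 on the log2 scale. Penk, the enkephalin precursor, rose by 0.77 ± 0.11 in cortex (limma, adjusted p = 8.32e-04), by 0.55 ± 0.14 in hippocampus (0.0240) and by 0.82 ± 0.05 in striatum (1.98e-08), and Tac1, the substance P precursor, by 0.64, 0.56 and 1.70. By region 5 of the 7 were higher in striatum than in cortex by limma (35.3% of all genes were) and none was lower (33.8%), and 5 were higher (38.6%) and 1 lower (36.7%) in striatum than in hippocampus. Of 18 genes for ligand synthesis, transport and breakdown none rose in any region and 0, 1 and 2 fell. Among 18 genes for receptor desensitization and RGS proteins, which shorten G protein signals, 2, 2 and 1 rose and 0, 2 and 2 fell. Rgs2 rose by 1.83 ± 0.09, 2.01 ± 0.08 and 1.38 ± 0.06 in the 3 regions (limma, adjusted p of at most 6.00e-08), and Rgs4 by 0.52 ± 0.07 and 0.75 ± 0.04 in cortex and hippocampus (7.84e-04 and 1.62e-08). G protein alpha subunits (12 tested) had 0, 1 and 1 higher and 0, 1 and 2 lower with KCl, and adenylyl cyclases (8 tested) 1, 0 and 0 higher and 0, 1 and 2 lower.

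RNA from the TAPEs near receptor genes was sparse. The 292 TAPEs had a median of 13 reads summed over the 19 libraries, close to the 14 of all TAPEs, and 19 of them (6.51%, against 6.79% of all) reached the mean of 0.05 CPKM used as a filter. None lay near a cannabinoid or somatostatin receptor gene. By limma on log2(CPKM + 0.05), 7 of the 19 depended on region (F-test, adjusted p under 0.05), against 48.8% of the 1870 filtered TAPEs. Between cortex and hippocampus 3 differed (14.9% of all), between cortex and striatum 6 (33.3%), and between hippocampus and striatum 6 (43.0%). Without the filter 28 of the 292 depended on region (9.59%, against 7.36% of all).

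The TAPE 6348 bp upstream of Npy2r (chr2:181537034-181539619, Rn6) showed the largest region difference. Its lowest, median and highest values were 0.160, 0.329 and 0.412 CPKM in hippocampus, 0.0213, 0.0429 and 0.124 in cortex and 0, 0 and 0.0334 in striatum, from 275, 58 and 10 reads. Hippocampus lay apart from both others, 5.97-fold over striatum (2.58 ± 0.25, limma, adjusted p = 6.41e-10) and 3.37-fold over cortex (5.83e-06). This is the order of Npy2r itself. The call between cortex and striatum (adjusted p = 0.00932) was lost in some alternatives, among them no filter (0.0644) and vehicle libraries alone (0.120). The TAPE 16301 bp from Htr4 (chr18:57636876-57639102) was also highest in hippocampus, with 0.0864, 0.129 and 0.220 CPKM against 0.0131, 0.0327 and 0.0792 in cortex and 0.00861, 0.0316 and 0.0828 in striatum. It lay 2.10-fold over cortex and 1.99-fold over striatum (limma, adjusted p = 0.00264 and 0.00135), and Htr4 was highest in hippocampus as well.

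The TAPEs near Htr1d, Adrb1, Chrm4 and Chrm1 had their highest means in striatum. Of their genes, Htr1d was called highest there, and Adrb1 was called higher there than in hippocampus but not than in cortex. Chrm4 and Chrm1 were instead highest in cortex. The Htr1d TAPE at 68623 bp (chr5:154730553-154732653) had 0.148, 0.193 and 0.259 CPKM in striatum, 0.0141, 0.0695 and 0.164 in cortex and 0.0337, 0.0829 and 0.151 in hippocampus (cortex minus striatum -1.10 ± 0.25, limma, adjusted p = 9.33e-04). The Adrb1 TAPE at 106071 bp (chr1:277430160-277432869) had 0.0765, 0.117 and 0.177 in striatum and at most 0.0517 elsewhere (-1.40 ± 0.22 for cortex minus striatum, limma, adjusted p = 7.82e-06). Near Oprl1, Chrm4 and Chrm1 the TAPE and the gene were highest in different regions. The Oprl1 TAPE at 52379 bp (chr3:177276654-177279577) led in cortex, with 0.280, 0.334 and 0.391 CPKM over 0.126, 0.160 and 0.199 in hippocampus and 0.0542, 0.0918 and 0.129 in striatum, while Oprl1 led in hippocampus. The Chrm4 TAPE at 137197 bp (chr3:80968923-80972016), the deepest of all 292 with 2883 reads, led in striatum with 0.879, 1.07 and 1.39 over 0.627, 0.698 and 0.835 in cortex and 0.571, 0.736 and 0.802 in hippocampus, where Chrm4 was lowest. The Chrm1 TAPE at 8808 bp (chr1:224890401-224892093) was 1.52-fold higher in striatum than in cortex (limma, adjusted p = 0.0106), where Chrm1 was highest in cortex. That call missed the threshold without cortex vehicle replicate 2 (-0.40, adjusted p = 0.0502).

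**Figure D3:**
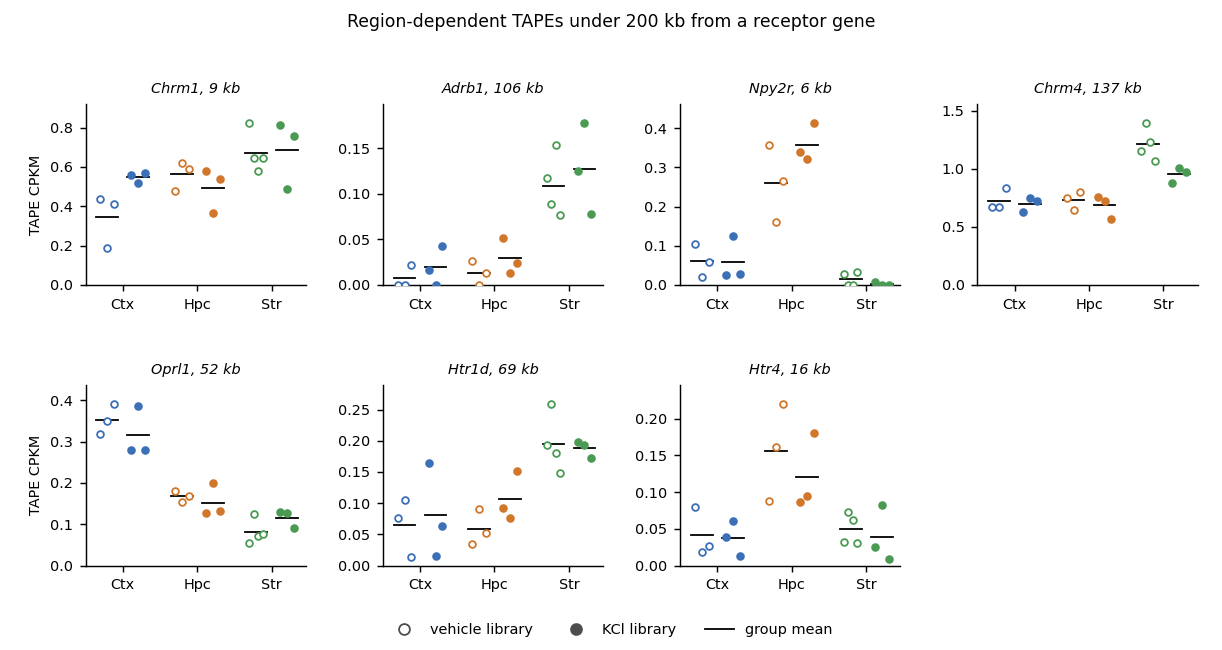
CPKM in each library for the 7 TAPEs near receptor genes that differed between regions, titled by nearest receptor gene and distance, with open points for vehicle, filled points for KCl and short lines for group means. The Npy2r TAPE stood between 0.160 and 0.412 in hippocampus and at most at 0.0334 in striatum, and the Chrm4 TAPE stood between 0.879 and 1.39 in striatum and at most at 0.835 elsewhere.

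Below the filter, 21 TAPEs with 18 to 279 reads depended on region when no filter was applied. The Oprd1 TAPE at 48141 bp (chr5:150273874-150275971, 74 reads) had 0.101, 0.106, 0.0576 and 0.0988 CPKM in striatum vehicle and 0.0900, 0.0703 and 0.110 in striatum KCl libraries. It was listed at 0 in all 6 hippocampus libraries and reached 0.00708 in cortex (limma F-test with no filter, adjusted p = 5.49e-09), and Oprd1 led in striatum. The Sstr4 TAPE at 140027 bp had a mean of 0.0635 CPKM in hippocampus, 0.00687 in cortex and 0 in striatum, and the Cnr2 TAPE at 61843 bp 0.0859 in hippocampus, 0.00469 in cortex and 0.00959 in striatum, from 63 and 74 reads. The TAPE 92032 bp from Htr2c, the serotonin receptor gene on chromosome X whose reads could not be recovered, had 0.0440 in striatum, 0.00449 in cortex and 0.00154 in hippocampus, from 35 reads. The filtered TAPEs that did not pass between regions lay near Drd4, Htr5a, Tacr1, Oprl1, Oprd1, Htr1d, Htr6, Htr2b, Adra1b, Hrh4 and Tacr2, with means from 0.0516 CPKM near Htr2b to 0.30 near Adra1b.

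None of the 19 TAPEs passed for KCl by limma in any region, where the shares over all filtered TAPEs were 0.321% for cortex, 0.0535% for hippocampus and 1.23% for striatum, and none for the interaction (0.0535%). At an unadjusted p under 0.05 there were 2 (cortex), 0 (hippocampus) and 3 (striatum), and limma voom on reads also called 0. The lowest was the Oprd1 TAPE at 130379 bp in striatum (-1.35 ± 0.32, limma, adjusted p = 0.0630). The 11 genes called for KCl had 73 TAPEs under 200 kb, and only Adrb1, Chrm4, Htr4 and Htr6 had one past the filter. Npy1r, Sstr1, Adra2a and Sstr2 had none, and with no filter 0 of the 292 TAPEs passed for KCl in any region by limma. The median of all filtered TAPEs shifted with KCl by -0.07, -0.17 and -0.14 on the log2 scale in cortex, hippocampus and striatum.

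Correlations of TAPE and gene over the 19 libraries, as deposited, had a median of 0.09 over the 314 pairs and 0.03 over all 73636 pairs under 200 kb. They were at least 0.5 for 28 pairs (8.92%, against 6.63%), at most -0.5 for 2 (0.637%, against 2.15%) and above 0 for 190 (60.5%, against 53.3%). The higher share above 0 was not seen where the TAPE passed the filter. Of those 20 receptor pairs, 10 were above 0, against 56.9% of all pairs past the filter. At least 0.5 were 3 (against 14.2%) and at most -0.5 was 1 (against 6.11%). Their median was 0.18, against 0.07. Receptor pairs from 200 kb to 1 Mb, 1032 in number, had a median of 0.00. Libraries of a region share tissue and culture, and the regions differ as given above, so these correlations are descriptions without a test. Opioid pairs had the highest family median, 0.30 over 26 pairs, and neuropeptide Y pairs had -0.01 over 36, most of which are the shared TAPEs of Npy1r and Npy5r. At the distance limit the members just inside were 198743 bp from Adra1b, 198865 bp from Oprk1 and 199495 bp from Cnr2 (r of 0.11, -0.04 and -0.08), and just outside 200317 bp from Tacr3, 200701 bp from Hrh1 and 201878 bp from Adrb3 (-0.13, 0.34 and -0.03).

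The highest r were 0.95 for Npy2r at 6348 bp, 0.94 for Oprd1 at 48141 bp, 0.87 for Hrh1 at 88448 bp, 0.85 for Oprd1 at 79344 bp and 0.79 for Htr4 at 16301 bp. The lowest were -0.79 for Chrm4 at 137197 bp, -0.69 for Hrh2 at 84392 bp, -0.48 and -0.46 for Htr5b and -0.43 for Hrh3 at 124046 bp. The Htr5b TAPEs rest on 5 and 9 reads. The Hrh2 TAPE rests on 61 reads. For the 27 named pairs with gene reads, 76 correlations over 6 or 7 libraries of a region could be computed, and 2 had an exact permutation p under 0.05 by Pearson's r. The Oprl1 TAPE at 52379 bp had r = 0.92 in cortex (exact permutation p = 0.0125, rho = 0.94, p = 0.0167, and r = 0.99 without the 2 libraries farthest from the median TAPE value). Its r had the opposite sign in hippocampus (-0.76) and striatum (-0.46). The Tacr1 TAPE at 148153 bp had r = 0.87 in striatum (exact permutation p = 0.0317, rho = 0.79, p = 0.0480, and r = 0.81 without 2 libraries). For this pair r was -0.64 in cortex and 0.12 in hippocampus. After Benjamini-Hochberg adjustment over the 76 none passed, the lowest adjusted p being 0.622 for Pearson and 0.812 for Spearman. Npy2r and its TAPE had r of 0.76, 0.60 and 0.70 within cortex, hippocampus and striatum, while Oprd1 at 48141 bp had -0.31 in cortex and 0.44 in striatum, and Chrm4 -0.32, -0.21 and -0.50. Without 2 libraries the Npy2r values were 0.67, 0.50 and -0.42. In striatum that pair rests on 27 gene reads, and on 9 TAPE reads with vehicle and 1 with KCl. Over the receptor pairs the median r within cortex, hippocampus and striatum was -0.02, 0.10 and -0.11, against -0.01, 0.00 and 0.01 over all pairs under 200 kb. Where the TAPE passed the filter these medians were 0.12, -0.02 and -0.16 for receptor pairs, against 0.03, 0.05 and 0.07 for all pairs.

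**Figure D4:**
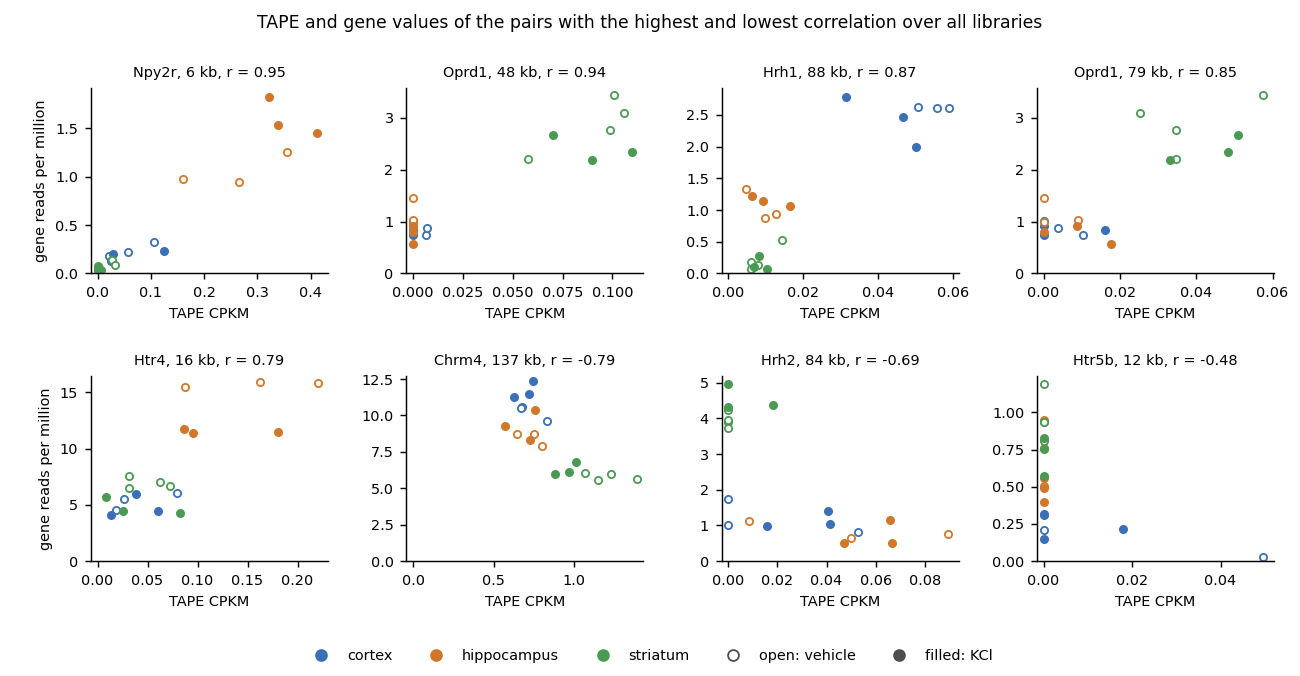
Gene RPM against TAPE CPKM over the 19 libraries for the 5 pairs with the highest and 3 with the lowest correlation, coloured by region, with open points for vehicle and filled points for KCl. The points of a region cluster: hippocampus stands apart at the top for Npy2r (gene values of 0.942 to 1.83), and striatum stands apart at high TAPE and low gene values for Chrm4.

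**Figure D5:**
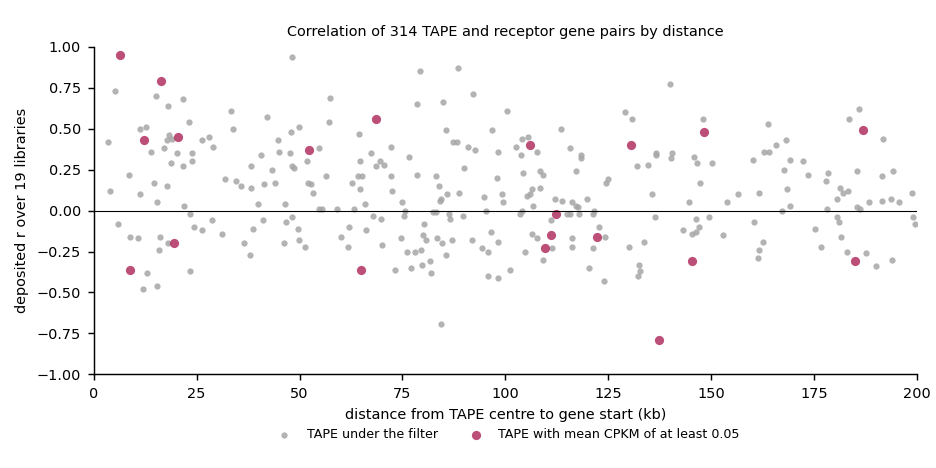
Deposited correlation over 19 libraries against the distance in kb from TAPE centre to gene start for the 314 pairs, with pairs whose TAPE reached a mean of 0.05 CPKM as larger points. Values scatter from -0.79 to 0.95 around a median of 0.09, and the highest belongs to the Npy2r TAPE at 6348 bp.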

How the data were processed

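Total RNA depleted of ribosomal RNA was sequenced from 19 libraries. Per the labels and the study's methods, the authors trimmed reads (Trim Galore 0.4.5), aligned them to rn6 with STAR, and counted them in SeqMonk over TAPEs called from pooled ATAC-seq and RNA-seq. The deposited TAPE values are CPKM, the same unit as RPKM. The deposited TAPE-gene correlations are used as a score. TAPE reads were counted on both strands, and the strand setting for genes is not given in the sources used here.

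The members and lists were chosen with earlier results of these data known. Whole TAPE reads came from CPKM, length and library total. Gene profiles were solved from the correlations and scaled to whole reads (16795 of 17715 genes, 94.8%, within 0.0101 of a read). Library totals were 46.4 to 72.5 M reads, and limits on counts cover counting error only and take reads as independent. TAPEs were tested by limma 3.58.1 (R 4.3.3) on log2(CPKM + 0.05) where the mean was at least 0.05, genes by exact permutation of their profiles, both with Benjamini-Hochberg adjustment over all features. Limma on log2(RPM + 0.2) of genes with a mean of at least 0.2 RPM gave sizes, and its tests within regions and of the KCl by region interaction were added after seeing the data. Tests were checked on simulated data. Named were all genes past a region or KCl test, filtered TAPEs, and the 5 highest and 5 lowest correlations. TAPEs singled out below the filter were chosen after their values were seen. Libraries with the same replicate number showed weak correlations of deviations (from -0.18 to 0.08), and whether they share a preparation is not known. Python 3.11.15 with scipy 1.17.1 was used. TAPE sequences are not used here, as no rn6 genome was at hand. One receptor gene is not reported here by name.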

Additional observations from a re-analysis of the deposited data

Results flagged for a closer look

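The TAPE 112193 bp from Drd4 (chr1:214165353-214166854, rn6) had 0.316 CPKM in striatum vehicle replicate 2, where the 3 other libraries of that group had 0.134 to 0.149. It was the only such stray library among 56 values tested, and chance alone gives about 1 in 20.

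The KCl effect differed between the regions for 5 receptor genes by limma's interaction test. The adjusted p was 3.29e-05 for Adrb1, which rose most in cortex, and 0.00334 for Sstr1, 0.0178 for Npy1r and 0.0411 for Adra2a, which rose most in hippocampus. It was 0.0310 for Sstr2, which rose in striatum.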

How the results depend on the processing

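With no filter on low TAPEs, 28 of the 292 TAPEs depended on region and 30 differed in a pairwise region test, against 7 of 19 with the filter. In 1 fit of all 6 groups, 1 TAPE passed for KCl in striatum, against 0. With no filter on low genes the KCl by region interaction passed for 2 genes, against 5, and Adra2a, Npy1r and Sstr2 were lost. The cause of these moves was not tested. Leaving out each library in turn gave 7 to 12 genes called for KCl (7 without striatum vehicle replicate 4), 2 to 6 for the interaction, 31 to 34, 34 to 35 and 32 to 34 for cortex against hippocampus, cortex against striatum and hippocampus against striatum, 6 to 9 region-dependent TAPEs, 0 TAPEs for KCl, and a median correlation of 0.07 to 0.10. Of the values of single genes and TAPEs, 3132 stayed on their side of the threshold, 178 lost their call and 0 reversed. At a median of 13 reads per TAPE, depth limits most TAPEs.

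With the replicate number as a block, limma called 5 genes for KCl over the regions, against 10 without it, among those lost being Chrm4, Htr2a, Htr6 and Sstr2, and permutation within numbers called 8, against 11. Cortex against hippocampus then gave 30 genes by permutation and 33 by limma, cortex against striatum 30 and hippocampus against striatum 29 by limma, and 6 TAPEs depended on region. Lost against striatum were the cortex calls of the Npy2r, Chrm4 and Htr1d TAPEs (limma, adjusted p = 0.314, 0.0789 and 0.0854) and the hippocampus calls of the Chrm4, Htr1d and Oprl1 TAPEs (0.0597, 0.138 and 0.157). Replicate numbers 4 to 8 occur only in striatum, in 1 library each, so the block fits those libraries exactly. In these limma fits striatum therefore counts only through its vehicle replicate 2 and KCl replicate 1, also for KCl over the regions. Losses that involve striatum thus cannot show whether pairing matters. Within cortex and hippocampus the block left 2 and 4 genes and 0 TAPEs called for KCl. Of 12 libraries, 3 correlated best with their own number over genes. Such weak correlations cannot show whether libraries with the same number share a preparation. No paired analysis was possible for KCl in striatum because its treatments share no replicate number.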
